A study of Homo sapiens with 2 samples.

Results

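NRF2, its inhibitor KEAP1 and 7 classical antioxidant genes were followed in ACHN, a cell line of human renal cell carcinoma. The 9 genes (NFE2L2, KEAP1, SQSTM1, NQO1, GCLC, GCLM, TXNRD1, SRXN1 and HMOX1) were chosen by name and function, with earlier results of these data known. All 9 were found among the 12014 genes listed for both libraries. One library came from cells infected with a lentivirus carrying an shRNA against KIAA1429 (shKIAA1429), a scaffold of the m6A methyltransferase complex, and the other from cells infected with a control shRNA (shNC). Both cell populations were selected with puromycin as stable lines, and the sample labels call the first a knockout although the study describes a knockdown. Each group had 1 library, so the differences below could not be set against a spread between replicates and carry no p-value or SD.

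NFE2L2 encodes NRF2, a transcription factor of the cap'n'collar family. In unstressed cells KEAP1 holds NRF2 in the cytoplasm and hands it to the CUL3 and RBX1 ubiquitin ligase, so that much of the control lies in the stability of the protein rather than in its mRNA. When cysteines of KEAP1 are oxidized or alkylated, or when the autophagy receptor SQSTM1 (p62) occupies KEAP1, NRF2 builds up, pairs with a small MAF protein and binds the antioxidant response element of genes for glutathione synthesis, thioredoxin reduction, quinone reduction and heme breakdown. In papillary renal carcinoma this pathway is known to be switched on by mutation of NFE2L2, KEAP1 or CUL3, or by loss of fumarate hydratase.

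The core letters of the antioxidant response element, TGACNNNGC, were sought on both strands of windows that run from 250 bases before to 50 bases after annotated starts (RefSeq, GRCh38.p14). Windows were found for 8 of the 9 genes, 13 windows in all, and HMOX1 had none in the table. The letters were present for KEAP1, GCLM and TXNRD1, in 4 windows with 6 matches, and absent from the windows of the other 5 genes. They were present in 13.3% of all 35116 windows, and in at least 1 window of 19.7% of the 8457 expressed genes that had one, and a window without them says nothing of sites farther away. The matches are shown because the members that hold them did not share a direction of change, as described further on. Each is written 5′ to 3′ on the strand that reads TGACNNNGC, with the match in capitals and up to 10 bases on each side.
GCLM, 34 bases before the start (chr1:93909456-93909464): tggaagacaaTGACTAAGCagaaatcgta
KEAP1, 31 bases before its second start (chr19:10502794-10502802): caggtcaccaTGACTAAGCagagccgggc
KEAP1, 54 bases before its second start (chr19:10502817-10502825): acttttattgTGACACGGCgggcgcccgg
TXNRD1, 99 bases before its first start (chr12:104215680-104215688): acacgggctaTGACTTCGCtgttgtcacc
TXNRD1, 8 bases before its first start (chr12:104215771-104215779): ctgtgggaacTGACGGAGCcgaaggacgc
TXNRD1, 102 bases before its second start (chr12:104286930-104286938): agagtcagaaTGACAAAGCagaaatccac

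The match of GCLM and 1 match of KEAP1 had the same 9 letters, TGACTAAGC. The related letters TGACTCA, a site of AP-1 factors that the element can contain, were in 0 of the 13 windows of these genes and in 4.95% of all windows. The whole windows of GCLM and NQO1 are given because these were the target genes with the highest and the lowest change. Both lie on the minus strand and are written in the direction of the gene, with the match of GCLM in capitals.
GCLM (chr1:93909381-93909680): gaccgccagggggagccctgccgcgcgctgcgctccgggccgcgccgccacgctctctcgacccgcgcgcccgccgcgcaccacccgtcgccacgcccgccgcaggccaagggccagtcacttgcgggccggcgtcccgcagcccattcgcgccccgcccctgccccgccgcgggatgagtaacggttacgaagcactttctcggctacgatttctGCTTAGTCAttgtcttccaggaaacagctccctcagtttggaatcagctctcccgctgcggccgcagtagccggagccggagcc
NQO1 (chr16:69726511-69726810): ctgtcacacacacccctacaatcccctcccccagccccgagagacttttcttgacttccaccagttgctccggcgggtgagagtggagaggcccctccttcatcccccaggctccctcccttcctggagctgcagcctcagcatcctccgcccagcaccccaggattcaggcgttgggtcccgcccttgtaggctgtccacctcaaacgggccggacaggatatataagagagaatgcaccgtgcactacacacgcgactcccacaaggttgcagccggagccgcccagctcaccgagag

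Levels are FPKM, the fragments of a gene per kilobase of its length and per 1000000 fragments of the library, as the authors deposited them. Read counts are not in these files, which leaves depth unknown and counting error without an interval. Changes are differences in log2(FPKM + 1), shKIAA1429 minus shNC; the added 1 makes changes of low genes look smaller. KIAA1429 itself, listed as VIRMA, was at 3.92 FPKM with shNC and at 3.22 FPKM with shKIAA1429, or 82.1% of the control, a log2 change of -0.22 that became -0.10 after rescaling both libraries to sums of 1000000. Its percentage of the control lay between those of 2 of the 5 reference genes: ACTB was at 715 and 601 FPKM (84.1%) and GAPDH at 1378 and 1111 FPKM (80.7%). The reference genes TBP, HPRT1 and PPIA stood higher than VIRMA, at 100.4%, 117.4% and 103.8% of the control. The median log2 change of VIRMA with 5 reference genes was -0.11. The study itself reported significantly lower KIAA1429 mRNA and protein in its knockdown ACHN cells, by RT-qPCR and western blot. The 10702 genes with a mean of at least 1 FPKM had a median log2 change of 0.06, and 90% of them lay between -0.55 and 0.66. Mitochondrial transcripts made up 42.2% of the FPKM sum with shNC and 34.6% with shKIAA1429, and when both libraries were rescaled to sums of 1000000 the median of all genes moved up by 0.18. The part of this share in the values below was not tested beyond that rescaling. Of 7 genes taken as renal epithelial markers, 7 were listed with a mean of at least 1 FPKM. That was the only criterion set against the labelled origin. In shNC and shKIAA1429, PAX8 was at 64.7 and 104 FPKM, KRT8 at 78.3 and 74.6 FPKM and VIM at 368 and 228 FPKM. Of 12 markers of immune, endothelial, erythroid and fibroblast cells, 9 were not listed in the files, among them PTPRC, PECAM1 and HBB, and the other 3 (CD68, LYZ and COL1A1) summed to 8.88 FPKM with shNC and 3.83 FPKM with shKIAA1429. LYZ alone was at 3.93 and 0.154 FPKM, and its part in the results was not tested. In RNA from a whole culture, fewer cells that express a gene and less of its RNA per cell cannot be told apart.

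All 9 genes passed the limit of 1 FPKM. With shKIAA1429, NFE2L2 and GCLM were higher and NQO1 was lower by more than 0.5 on the log2 scale, while 6 of the 9 genes lay within 0.5. GCLM came to 0.48 once the all-gene median was subtracted, and NQO1 to -0.47 after rescaling to a sum of 1000000. Over all genes, 9.9% were higher and 6.12% were lower past this limit, and after rescaling 23.9% were higher and 4.59% lower. The 9 genes then had 3 higher members, HMOX1 among them at 0.64, and 0 lower. None of the 9 genes passed 1.5, which 0.383% of all genes passed upward and 0.252% downward. The study also set 1.5 for changed genes, but on log2 changes from DESeq2 and together with a limit on P. The 2 uses of this limit are therefore not alike. The median log2 change of the 9 genes was -0.11, beside 0.06 for all genes, and became 0.07 after rescaling to a sum of 1000000. Relative to the median of all genes 3 of the 9 were higher and 6 were lower. These counts were the same under all 7 alternative scalings, pseudocounts and row choices tried. Centring and row choice could hardly change them, and scaling moves nearly all genes together, so this sameness was largely fixed in advance.

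**Figure D1:**
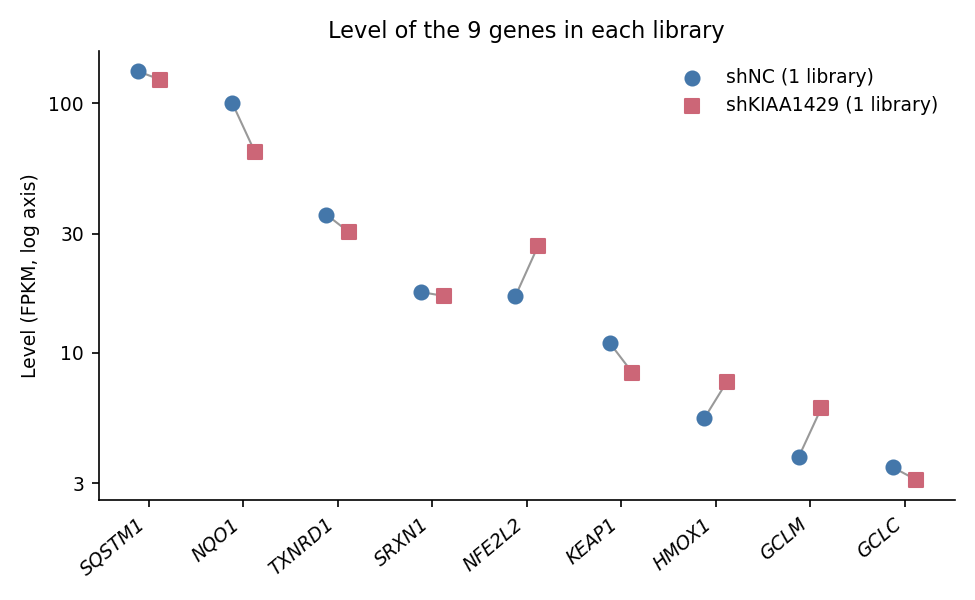
Level of the 9 genes in FPKM (log axis) in the shNC library (circles) and the shKIAA1429 library (squares), ordered by the level with shNC. Lines join the 2 values of a gene; NFE2L2, HMOX1 and GCLM stand higher with shKIAA1429 and the other 6 genes lower.

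**Figure D2:**
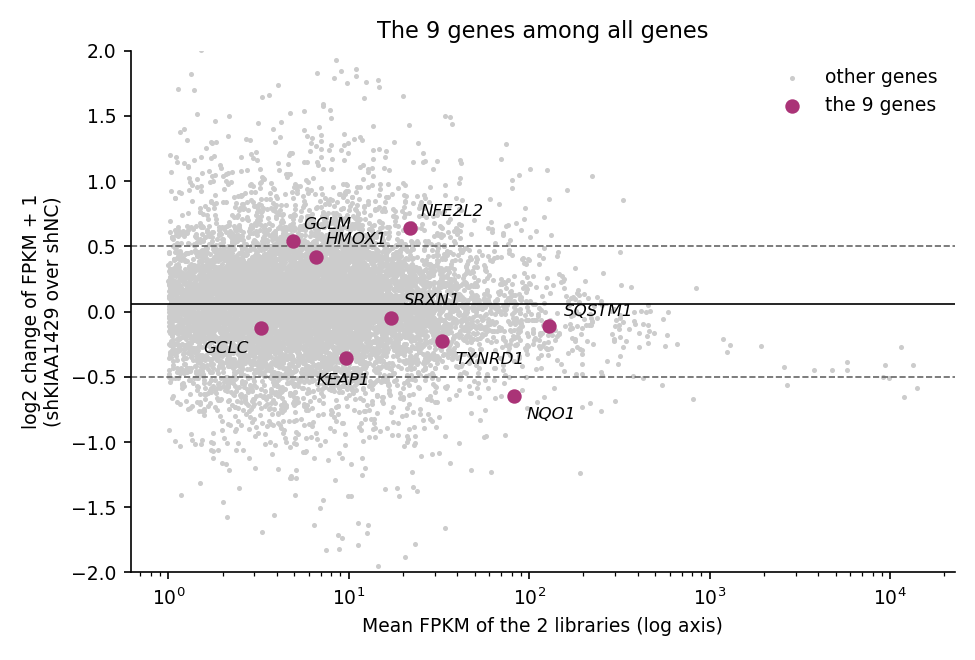
Log2 change of FPKM + 1 (shKIAA1429 over shNC) against the mean FPKM of the 2 libraries (log axis) for 10702 genes in grey and the 9 genes in purple. The solid line is the median of all genes and the dashed lines are 0.5 and -0.5; 26 grey genes lie beyond the axis of 2. NFE2L2 and GCLM lie above the upper dashed line and NQO1 below the lower one.

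NFE2L2 (ENSG00000116044.15_3) is annotated on chromosome 2 (GRCh37, 178092323 to 178257425, minus strand; the positions of the other genes are on the same build). The shNC library had 16.8 FPKM and the shKIAA1429 library 26.8 FPKM, 1.59 times as much. The log2 change of 0.64 was exceeded by 5.57% of all genes, and by 33 genes of the 535 in its bin, 1 of 20 bins of like mean FPKM. In that bin, between 20.1 and 28.3 FPKM, 90% of the genes had changes from -0.65 to 0.72, so NFE2L2 lay inside the range of genes of like level. AGPS overlaps it on the opposite strand and was at 9.95 and 11.4 FPKM.

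KEAP1 (ENSG00000079999.13_3; chromosome 19, 10596796 to 10614417, minus strand), the substrate adaptor that keeps NRF2 low, moved the other way. It was at 10.9 FPKM with shNC and at 8.30 FPKM with shKIAA1429, or 76.0% of the control, a log2 change of -0.36. A lower change was found for 11.0% of all genes. Because both genes are read in the same library, their ratio does not depend on how a library was scaled. There were 1.54 NFE2L2 units of FPKM per unit of KEAP1 with shNC and 3.22 with shKIAA1429, a ratio that was 2.09 times as high. These are mRNA levels, and neither NRF2 protein nor its place in the cell was measured here.

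SQSTM1 (ENSG00000161011.19_3; chromosome 5, 179233398 to 179265078, plus strand) is both a target of NRF2 and a protein that competes for KEAP1. It was the most abundant of the 9 genes in both libraries, with 134 FPKM for shNC and 124 FPKM for shKIAA1429. Its log2 change was -0.11 as deposited and 0.07 after rescaling to a sum of 1000000, so no direction can be given for it. MGAT4B, which overlaps SQSTM1 on the opposite strand, was at 28.1 and 26.9 FPKM.

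NQO1 (ENSG00000181019.12_2; chromosome 16, 69740899 to 69760854, minus strand) reduces quinones by transfer of a pair of electrons and is often used as a readout of NRF2 activity. It was at 100.5 FPKM with shNC and 63.9 FPKM with shKIAA1429, or 63.6% of the control. Its log2 change of -0.64 was the lowest of the 9 genes, and 3.31% of all genes were lower. NQO1 was also the only one of the 9 to lie outside the central 90% of its bin of level, which ran from -0.57 to 0.61. That bin spanned mean levels from 48.7 to 14169 FPKM, so it also held genes far more abundant than NQO1. With NFE2L2 higher and NQO1 lower, the FPKM of NQO1 per unit of NFE2L2 was 5.97 with shNC and 2.39 with shKIAA1429. NQO1 and SQSTM1 together held 71.5% of the summed FPKM of the 9 genes with shNC and 65.5% with shKIAA1429.

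The genes of glutathione synthesis encode the subunits of glutamate-cysteine ligase, the rate-limiting enzyme. The modifier subunit gene GCLM (ENSG00000023909.9_2; chromosome 1, 94350761 to 94375012, minus strand) was at 3.82 FPKM with shNC and 6.003 FPKM with shKIAA1429, or 1.57 times the control and a log2 change of 0.54. The catalytic subunit gene GCLC (ENSG00000001084.10_3; chromosome 6, 53362139 to 53481768, minus strand) was at 3.46 and 3.10 FPKM, and its log2 change was -0.12 as deposited and 0.02 after rescaling to a sum of 1000000. GCLC was the least abundant of the 9 genes in both libraries. The ratio of GCLM to GCLC was 1.10 with shNC and 1.94 with shKIAA1429, so the subunits of 1 enzyme changed unequally in these libraries. For GCLM 8.21% of all genes had a higher change, and the change of GCLM was inside the central 90% of its bin of level.

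TXNRD1, SRXN1 and HMOX1 stand for thioredoxin reduction, peroxiredoxin repair and heme breakdown. TXNRD1 (ENSG00000198431.15_3; chromosome 12, 104609557 to 104744083, plus strand), the cytosolic selenoenzyme that reduces thioredoxin, was at 35.7 FPKM with shNC and 30.4 FPKM with shKIAA1429, a log2 change of -0.23. The listed gene EID3 lies inside it on the same strand, at 1.37 and 1.19 FPKM. SRXN1 (ENSG00000271303.1_3; chromosome 20, 627259 to 634014, minus strand), which restores over-oxidized peroxiredoxins, was at 17.5 and 16.9 FPKM. Its log2 change of -0.05 became 0.13 after rescaling to a sum of 1000000 and 0.0017 after scaling on 5 reference genes. AL121758.1 overlaps SRXN1 on the same strand, is listed at 0 with shNC and was at 0.823 FPKM with shKIAA1429, and their summed FPKM had a log2 change of 0.02. HMOX1 (ENSG00000100292.16_2; chromosome 22, 35776354 to 35790207, plus strand), the inducible heme oxygenase, was at 5.45 FPKM with shNC and 7.65 FPKM with shKIAA1429, or 1.40 times the control and a log2 change of 0.42. A higher change was found for 13.4% of all genes.

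The levels spanned a ratio of 38.7 between SQSTM1 and GCLC with shNC and of 40.1 with shKIAA1429. The order from highest to lowest with shNC was SQSTM1, NQO1, TXNRD1, SRXN1, NFE2L2, KEAP1, HMOX1, GCLM and GCLC. With shKIAA1429 the order differed in 1 place, where NFE2L2 stood above SRXN1. The 7 target genes together summed to 301 FPKM with shNC and 252 FPKM with shKIAA1429, and per unit of NFE2L2 they were at 17.9 and 9.42. NQO1 alone, at 100.5 and 63.9 FPKM, made most of the difference between these sums, and GCLM and HMOX1 were higher. The summed FPKM of all genes was also lower with shKIAA1429, at 249409 beside 283046 with shNC.

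**Figure D3:**
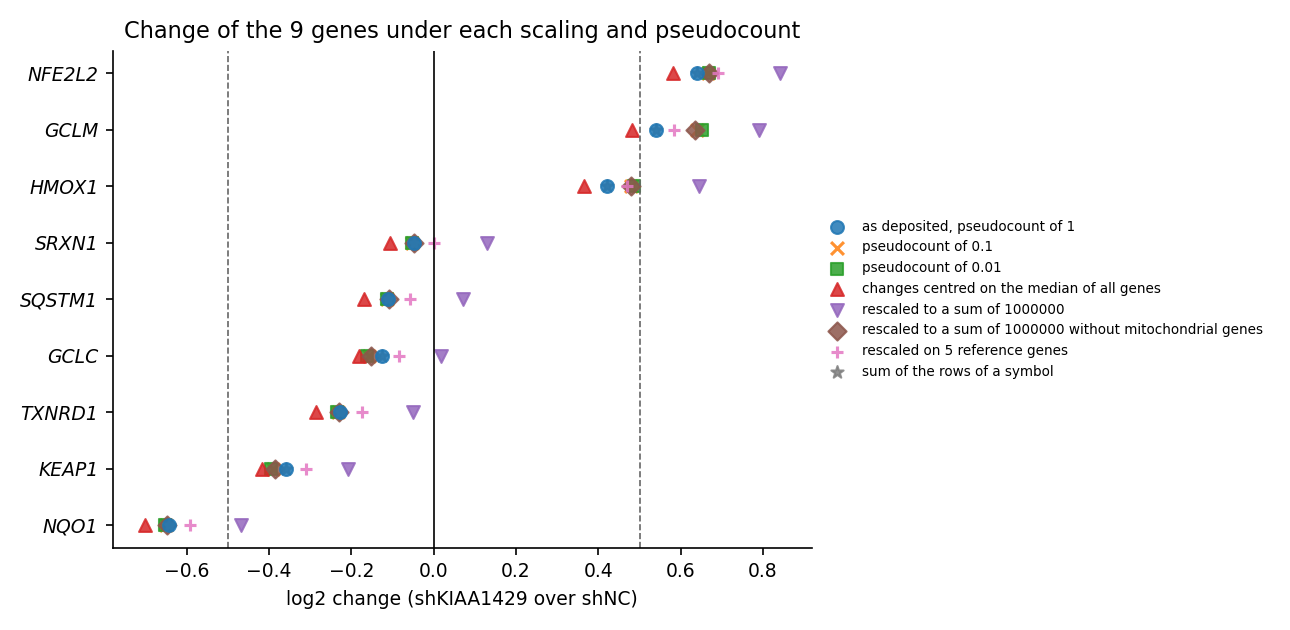
Log2 change (shKIAA1429 over shNC) of each of the 9 genes as deposited with a pseudocount of 1 and under 7 alternative scalings, pseudocounts or row choices, one marker for each; dashed lines are 0.5 and -0.5. NFE2L2, GCLM and HMOX1 stayed above 0, NQO1, KEAP1 and TXNRD1 stayed below 0, and SRXN1, SQSTM1 and GCLC crossed 0 after rescaling to a sum of 1000000, SRXN1 also after scaling on 5 reference genes.

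Partners of NRF2 were read from 2 lists. In the first, the other cap'n'collar factors and the MAF proteins, 6 of 8 genes were listed, and 5 of the 6 were higher than the median of all genes. MAFF, a small MAF, was at 2.72 and 5.19 FPKM in shNC and shKIAA1429, a log2 change of 0.73. BACH1, a repressor that competes with NRF2 for the same element, was at 3.29 and 5.48 FPKM, a log2 change of 0.59. BACH1 and NFE2L2 were higher by nearly the same factor, and the ratio of BACH1 to NFE2L2 was 0.196 with shNC and 0.205 with shKIAA1429. The small MAF genes MAFG and MAFK had log2 changes of 0.32 and 0.24 (0.25 for MAFG summed with SIRT7, which overlaps it on the same strand), and the related factors NFE2L3 and NFE2L1 had 0.19 and -0.02. The median log2 change of this list was 0.28, and it stayed above 0 under the same 7 alternatives.

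In the second list, 9 genes for ubiquitin ligases and for other routes of NRF2 turnover, 0 genes passed 0.5 in either direction as deposited. After rescaling to a sum of 1000000, RBX1 (0.57), GSK3B (0.56) and SYVN1 (0.71) passed it. Of all genes 9.9% were higher and 6.12% lower past it as deposited, and 23.9% and 4.59% after rescaling. CUL3 and RBX1, which form the ligase with KEAP1, had log2 changes of 0.21 and 0.37, from 5.32 to 6.31 FPKM and from 10.2 to 13.5 FPKM. KEAP1 was thus lower while the cullin and the RING protein it works with were higher. GSK3B, a kinase that marks NRF2 for the other ligase route, had a log2 change of 0.36, GSK3A had 0.04, and the F-box genes of that route, BTRC and FBXW11, had 0.21 and -0.21. CUL1 and SKP1, the scaffold and linker of that ligase, had -0.22 and 0.04. SYVN1, a ligase of the endoplasmic reticulum, had the highest change of the list, 0.48. It overlaps the abundant gene FAU on the same strand, and their summed FPKM had a log2 change of -0.08. SKP1 and GSK3A also overlap a listed gene on the same strand, and with it summed to changes of 0.18 and -0.11.

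Other known or likely targets of NRF2 and their neighbours in metabolism were read from 7 lists with 89 genes, of which 74 were listed and 70 had a mean of at least 1 FPKM. Past 0.5 there were 14 higher genes (20%) and 6 lower genes (8.57%), and the median log2 change was -0.04, beside 9.9% and 6.12% of all genes. After rescaling to a sum of 1000000 there were 16 higher genes (22.9%) and 4 lower genes (5.71%), beside 23.9% and 4.59% of all genes. The larger share of higher genes was not seen under that rescaling. It was seen when the sum left out mitochondrial genes (21.4% beside 13.7% of all genes) and on 5 reference genes (21.4% beside 11.8%). Centring gave 15.7% beside 7.64%, and a pseudocount of 0.1 gave 21.4% beside 13.9%. Relative to the median of all genes 22 of the 70 were higher and 48 were lower.

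**Figure D4:**
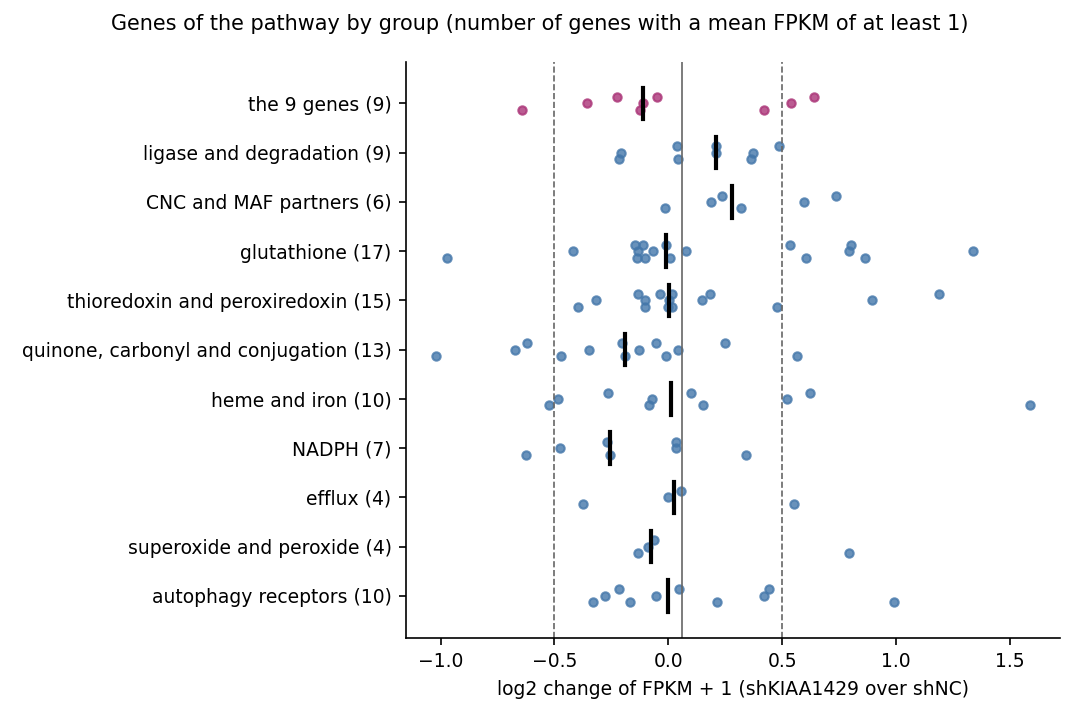
Log2 change of FPKM + 1 (shKIAA1429 over shNC) of the genes of 11 groups, one point for each gene with a mean of at least 1 FPKM, with the number of such genes after each name. Thick bars are group medians, the grey line is the median of all genes and dashed lines are 0.5 and -0.5; TFRC, in the heme and iron group, is the point at 1.59, and the NADPH group has the lowest median, -0.26.

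In the glutathione list 6 of 17 genes were higher (35.3%) and 1 was lower (5.88%) by more than 0.5. The shares of all genes were 9.9% and 6.12%. After rescaling to a sum of 1000000 the list had the same counts, beside 23.9% and 4.59% of all genes. SLC7A11, which imports cystine, was at 1.92 FPKM with shNC and 6.38 FPKM with shKIAA1429, a log2 change of 1.34. Its partner chain SLC3A2 was at 12.3 and 19.3 FPKM, a change of 0.60. The peroxidase genes GPX1 and GPX8 had changes of 0.86 and 0.80, and GPX4, which reduces lipid peroxides, had -0.13. The lower gene was MGST2, a microsomal glutathione transferase, at 7.00 and 3.08 FPKM and a change of -0.97. The glutathione synthetase gene GSS and the glutathione reductase gene GSR changed little, with 0.01 and -0.11. The median of the list was -0.01, and 0.17 after rescaling to a sum of 1000000.

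In the thioredoxin and peroxiredoxin list 2 of 15 genes (13.3%) were higher and 0 were lower past 0.5. The shares of all genes were 9.9% and 6.12%. With a pseudocount of 0.1 the counts of the list were 3 and 1 (20% and 6.67%), beside 13.9% and 8.73% of all genes. TXNIP, an inhibitor of thioredoxin, was at 3.91 FPKM with shNC and 10.2 FPKM with shKIAA1429, a log2 change of 1.19. SESN2, a stress-induced sestrin, was at 23.5 and 44.6 FPKM, a change of 0.89. The mRNAs of the abundant thiol antioxidants hardly differed. TXN was at 123 and 122 FPKM, PRDX1 at 292 and 295 FPKM, and PRDX6 at 98.4 and 98.7 FPKM. The lowest change was -0.40, for TXNRD3.

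The list of quinone, carbonyl and conjugation genes had 3 of 13 genes lower (23.1%) and 1 higher (7.69%) past 0.5. The shares of all genes were 6.12% lower and 9.9% higher. In this list 11 of the 13 were below the median of all genes. TRIM16, which is known to bind NRF2 and SQSTM1, was at 5.57 FPKM with shNC and 2.24 FPKM with shKIAA1429, a log2 change of -1.02. Reads of TRIM16 may be shared with its near copy TRIM16L, which had -0.13, and TRIM16 overlaps AC005324.3 on the same strand, with a change of -0.77 for their sum. CBR3, a carbonyl reductase, was at 3.91 and 2.07 FPKM, a change of -0.67, and ALDH3A2 had -0.62. The higher gene was OSGIN1, with 0.56. The genes AKR1C1, AKR1C2, ALDH3A1 and NQO2 were not listed. The median of -0.19 stayed below 0 under the same 7 alternatives, although it was -0.02 after rescaling to a sum of 1000000.

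Among the 7 genes that supply NADPH, 1 was lower (14.3%) and 0 were higher past 0.5 as deposited. Over all genes 6.12% were lower and 9.9% higher. In this list 6 of the 7 were below the median of all genes. PGD, of the pentose phosphate pathway, was at 57.7 FPKM with shNC and 37.1 FPKM with shKIAA1429, a log2 change of -0.62. TKT, of the same pathway, was at 48.1 and 34.3 FPKM, a change of -0.48. ME1, the cytosolic malic enzyme, had the highest change, 0.34. After rescaling to a sum of 1000000, PGD came to -0.45 and ME1 to 0.54, so that 0 were lower and 1 was higher. The shares of all genes were then 4.59% lower and 23.9% higher. The median of this list, -0.26, was the lowest of the 7 lists and stayed below 0 under the same 7 alternatives, with -0.09 after rescaling to a sum of 1000000.

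The heme and iron list had 3 higher (30%) and 1 lower gene (10%) of 10 past 0.5, beside 9.9% and 6.12% of all genes. After rescaling to a sum of 1000000 it had 3 and 0, beside 23.9% and 4.59% of all genes. TFRC, the transferrin receptor, was at 3.11 FPKM with shNC and 11.4 FPKM with shKIAA1429, a log2 change of 1.59 and the highest in these lists. SLC40A1, the iron exporter ferroportin, was at 19.3 and 13.1 FPKM, a change of -0.52 that became -0.37 after rescaling to a sum of 1000000. Ferritin mRNAs, at 2108 and 1754 FPKM for FTL and 390.5 and 371 FPKM for FTH1, had changes of -0.27 and -0.07. The constitutive heme oxygenase gene HMOX2 had -0.48 beside 0.42 for HMOX1, and BLVRB, which acts after heme oxygenase, had 0.52. Reads of FTL and FTH1 may be shared with their many processed pseudogenes.

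Of the 4 exporter genes tested, ABCC5 had the highest change, 0.55 (within 0.5 once centred), and ABCC4 the lowest, -0.38. Among SOD1, SOD2, SOD3 and CAT, the mitochondrial superoxide dismutase gene SOD2 was at 0.835 and 2.18 FPKM, a log2 change of 0.79, and CAT had the lowest change, -0.13. SOD2 was below 1 FPKM with shNC and passed the limit on the mean only through shKIAA1429, yet it counts among the higher genes of the target lists. In the list of autophagy receptors around SQSTM1, 1 of 10 genes was higher past 0.5, beside 9.9% of all genes. After rescaling to a sum of 1000000, 3 of 10 were higher, beside 23.9% of all genes. OPTN (0.64) and TAX1BP1 (0.62) then passed too. MAP1LC3B, a ubiquitin-like protein of the autophagosome that SQSTM1 binds, was at 13.02 FPKM with shNC and 26.8 FPKM with shKIAA1429, a log2 change of 0.99. The lowest change in that list was -0.33, for MAP1LC3A.

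The members were also compared in features of their RNA, taken from the longest coding transcript of each gene in GENCODE 29. GC content ran from 37.3% in GCLM to 60.3% in KEAP1, beside a median of 48.5% over 10644 matched genes. The letters GGACT, the most common form of the m6A consensus, occurred 3 times in NFE2L2, 4 times in KEAP1, 3 times in NQO1, 3 times in GCLM and 0 times in HMOX1. Per kilobase this was 1.05 in NFE2L2, 1.35 in KEAP1, 1.03 in NQO1 and 0.618 in GCLM, beside a median of 0.927 over the matched genes. Members with smaller changes had like values, with 1.11 in SRXN1, 1.005 in SQSTM1, 0.701 in TXNRD1 and 0.525 in GCLC. No m6A was measured in these libraries, and a match of letters is not a methylated site. The number of coding transcripts that could share the reads of a gene ran from 1 in SRXN1 to 19 in TXNRD1, with 12 in NFE2L2 and 6 in NQO1.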

How the data were processed

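Poly(A) RNA of 1 shKIAA1429 and 1 shNC culture of ACHN cells was sequenced in strand-specific paired-end libraries. The authors deposited FPKM values per gene. The submitters' processing notes name cutadapt 1.9, HISAT2 2.0.4 and StringTie 1.3.4d, without their roles or settings. The genome build is not given in the sources used here, and gene positions and identifiers are those of GENCODE genes on GRCh37. Each of the 12014 listed genes was above 0.5 FPKM in at least 1 library. Whether reads were counted by strand is not given in the sources used here.

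Changes were computed from the deposited FPKM as log2(FPKM + 1), shKIAA1429 minus shNC. Genes with a mean of at least 1 FPKM were kept (10702 genes), and 7 symbols that stood on several rows were read from their most abundant row. Limits were 0.5, and 1.5 as in the study. The members, gene lists and limits were chosen with earlier results of these data known. Named are the 9 members, VIRMA, ACTB, GAPDH, and in each list the genes past 1 in either direction or else the highest and lowest change, with every gene of the ligase and of the cap'n'collar and MAF lists. Other genes named were chosen after their values were seen. Some items are not reported here. The steps were tested on data made from the real levels with known changes, which were larger than those of any member. That test does not show how well changes of the members' size are recovered. Alternatives were pseudocounts of 0.1 and 0.01, centring, rescaling to a sum of 1000000 with and without mitochondrial genes, scaling on 5 reference genes, summed rows, other limits, other filters on low values, and leaving out genes that overlap another on the same strand. Promoter windows came from RefSeq on GRCh38.p14 and transcripts from GENCODE 29, matched by symbol and by Ensembl identifier. No coordinates were converted. Python 3.11.15, NumPy 2.4.6, pandas 2.3.3 and matplotlib 3.10.9 were used.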

Additional observations from a re-analysis of the deposited data

How the results depend on the processing

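With 1 library per group there is no replicate spread, so a log2 change or median was taken as moved when it crossed 0.5 or differed by more than 0.21, which is 0.5 times the interquartile range of the log2 changes of all genes, and a count or share when it changed by over 1.5 times. Rescaling both libraries to sums of 1000000 gave log2 changes of -0.47 for NQO1, 0.79 for GCLM and 0.64 for HMOX1, and centring on the median of all genes gave 0.48 for GCLM. By these values 3 members were higher and 0 lower past 0.5 after rescaling, and 1 was higher after centring. A mean FPKM of at least 5 also left 1 higher member, because GCLM fell under the filter. With limits of 1.5 and of 1 there were 0 higher and 0 lower members. After rescaling 23.9% of all genes were higher past 0.5. With a limit of 1.5 the shares of all genes were 0.383% higher and 0.252% lower, and with a limit of 1 they were 1.61% and 0.897%. By construction, rescaling moves nearly all genes up together and a stricter limit leaves fewer genes. The other 214 values recomputed under an alternative stayed within these bounds, among them the medians of the 11 other lists and of the members. The shares of all genes with a pseudocount of 0.01, 14.5% higher and 9.03% lower, did so too. Part of this was fixed in advance. No member stands on several rows, so summing rows could not change the members or their ratios. Centring shifts every log2 change by only 0.06. Medians near 0 changed sign for 8 of the 12 lists, and those of NADPH, of quinone, carbonyl and conjugation genes, of the ligase list and of the cap'n'collar and MAF list did not under the scalings and pseudocounts. Leaving out a replicate was not possible with 1 library in each group. Depth is unknown, which limits the values of low genes most, such as GCLC. No paired analysis was possible because neither group had another library.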
